A study of Arabidopsis thaliana with 11 samples.

Results

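The RS and SCL classes of serine/arginine-rich (SR) splicing factors were examined through the splicing of their own introns. The 9 genes are RS31, RS31a, RS40 and RS41 of the RS class, and SC35, SCL33, SCL30a, SCL28 and SCL30 of the SC35 and SC35-like class. They were chosen by name and hold 52 of the 121244 introns and 9 of the 22121 genes listed in the intron tables of the study. The longest intron of each gene was called its long intron where it spanned at least 300 bp. This gave 8 long introns and 44 others, of which 5 also spanned at least 300 bp, while SC35 had no intron of that length. The loci are RS31 (AT3G61860), RS31a (AT2G46610), RS40 (AT4G25500), RS41 (AT5G52040), SC35 (AT5G64200), SCL33 (AT1G55310), SCL30a (AT3G13570), SCL28 (AT5G18810) and SCL30 (AT3G55460).

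RNA of 10-day-old seedlings of the Arabidopsis accession Col-0 was sequenced as 5 groups, with neither a mutant nor a drug treatment. CB-RNA (2 libraries) and RNAe + RNAf (2 libraries) were both chromatin-bound RNA freed of rRNA only, RNAe (2 libraries) was also freed of polyadenylated RNA and stands for elongating transcripts, RNAf (2 libraries) was the polyadenylated RNA taken from the chromatin fraction, and mRNA (3 libraries) was polyadenylated RNA. Each table gives, for a splice site, the reads on its exonic and on its intronic side, and the 5ʹSS ratio or 3ʹSS ratio is intronic over exonic reads, so a ratio near 1 means that the intron is about as well covered as the exon beside it and a ratio near 0 that few intronic reads were left. The libraries of a group are joined in 1 set of values, so intervals and tests cover counting error only and say nothing on the spread between seedling samples. Where 5 ratios follow each other, their order is always CB-RNA first, then RNAe, RNAe + RNAf, RNAf and mRNA, and paired values give the 5ʹSS before the 3ʹSS.

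SR proteins bind exonic and intronic sequences of pre-mRNA through RNA recognition motifs, and their arginine/serine-rich tail recruits parts of the spliceosome to nearby splice sites. The RS class is found in plants, the SCL class resembles SC35 but carries an extra charged stretch at its start, and Arabidopsis SC35 is the counterpart of human SRSF2. Several SR genes are known to regulate themselves: alternative splicing inside a long intron, described for RS31 and SCL33, yields transcripts with a premature stop codon in place of the full protein.

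The sequences at the ends of the long introns are shown first, because the ratios are measured across them. They were read from the RefSeq copy of the genome (TAIR10.1), where 98.8% of the introns listed on the nuclear chromosomes, and 51 of the 52 introns of the 9 genes, run from GT to AG. In each 5ʹ splice site below, 10 exonic bases in lower case precede 15 intronic bases in capitals. The RS class comes first, where the long intron was intron 2 of 5 in all 4 genes and interrupted the coding sequence after 35 complete codons.
RS31 intron 2, 5ʹ splice site: atgaaatctgGTAAAGTGTCTTCTA
RS31a intron 2, 5ʹ splice site: atgaagtctgGTAAAACGTTTTCTT
RS40 intron 2, 5ʹ splice site: atgaaagctgGTGAGCCTTTTTTTT
RS41 intron 2, 5ʹ splice site: atgaaagctgGTAAGTCTTGGTTCT
SCL33 intron 3, 5ʹ splice site: attataccggGTGAGCATGTTTTGT
SCL30a intron 3, 5ʹ splice site: actatactggGTGAGGATGCTCTGT
SCL30 intron 3, 5ʹ splice site: attactcaggGTAAGCCTCCTCTTT
SCL28 intron 5, 5ʹ splice site: gagagtcaagGTTTGATTCTCATCT

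The matching 3ʹ splice sites give the last 20 intronic bases in capitals and 10 exonic bases in lower case.
RS31 intron 2, 3ʹ splice site: TGTGCTTTCTTTTGTTGCAGgatatgcttt
RS31a intron 2, 3ʹ splice site: GAGTTTTTGTTTTCTTGCAGgttatgcttt
RS40 intron 2, 3ʹ splice site: GCTTTTTCTTTTTTCTCCAGggtttgcttt
RS41 intron 2, 3ʹ splice site: CCTTTTGGTTCTCTCCCCAGggtttgcttt
SCL33 intron 3, 3ʹ splice site: AGATGAATCAAGTCTTCAAGaagtcatctt
SCL30a intron 3, 3ʹ splice site: GTTTGTTGGATTTGTTGCAGagatccaagg
SCL30 intron 3, 3ʹ splice site: GCTTCTGATAAATGATGCAGgcaaccgcgg
SCL28 intron 5, 3ʹ splice site: TTTCACTGGCACAAGCACAGgcatagtaaa

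Each splice site was scored in bits against the base frequencies at that site over all GT to AG introns, using 3 exonic and 6 intronic bases at the 5ʹ end and 14 intronic bases and 1 exonic base at the 3ʹ end. The median score of the 8 long introns was 7.73 for the 5ʹSS and 8.52 for the 3ʹSS, beside 7.50 and 6.87 over the 14167 GT to AG introns of at least 300 bp. The other introns of the 9 genes had medians of 7.97 and 7.27, and the 5 of them that span at least 300 bp had 9.77 and 7.87. Single members scored low: the 3ʹ splice site of SCL33 scored 1.10, higher than only 2.40% of the introns of that length, and the 5ʹ splice site of SCL30a scored 4.85, higher than 14.3%. At the other extreme, the 3ʹ splice sites of RS31 and RS31a scored 11.98 and 11.8, higher than 99.8% and 99.5%. The long introns had a median GC content of 36.2%, against 32.9% over introns of at least 300 bp, and in all 8 an in-frame stop codon would follow if the intron were kept, beginning at intronic base 111 in RS31, 54 in RS31a, 75 in RS40, 60 in RS41, 47 in SCL28 and 2 in SCL33, SCL30a and SCL30. Such a stop is not particular to them. Among the other introns within coding sequence of the 9 genes, only RS40 intron 4, RS41 intron 4, SC35 intron 3 and SCL33 intron 5 held none within the intron itself. The next exon was not searched, so a later stop is not excluded for them. The frame was that of a RefSeq transcript with the intron, not always the same transcript for all introns of a gene.

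Across the genes, the median ratios of the long introns were above those of the other introns in all 5 groups, and by far the most in RNAf and mRNA. In RNAf, the median 5ʹSS ratio was 0.582 for the long introns and 0.0166 for the 44 others, and the median 3ʹSS ratio was 0.695 and 0.0251. In mRNA the medians were 0.120 and 0.0041 at the 5ʹ splice site, and 0.145 and 0.0045 at the 3ʹ splice site. With reads summed over introns in place of the median, the others stood higher, at 0.0638 and 0.0649 in RNAf and 0.0298 and 0.0164 in mRNA, and the long introns at 0.461 and 0.726 in RNAf and 0.107 and 0.151 in mRNA. The 5 other introns of at least 300 bp had medians of 0.0104 at both sites in RNAf. Of these, 4 were the first introns of RS40, RS41, SCL33 and SCL30a, in the 5ʹ UTR, so they differ from the long introns in position too. All introns of at least 300 bp in the tables had medians of 0.0658 and 0.105 in RNAf and 0.0102 and 0.0105 in mRNA.

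**Figure D1:**
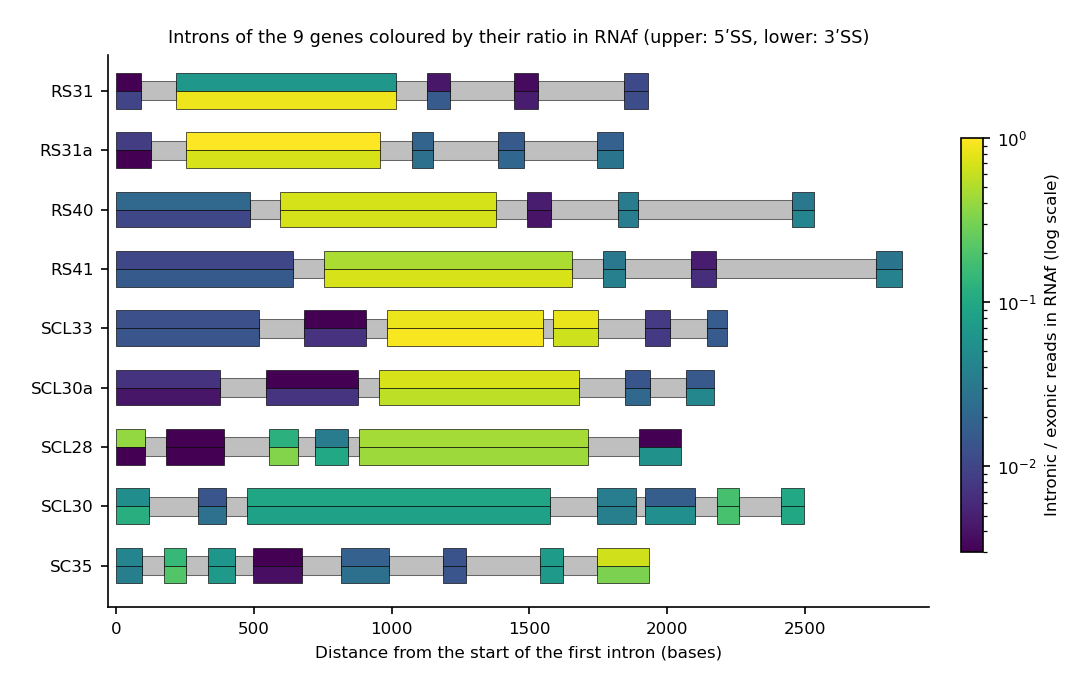
Maps of the 9 genes from the start of the first to the end of the last intron, drawn to scale in bases, with exons in grey and each intron coloured by its ratio of intronic to exonic reads in RNAf (log colour scale), the 5ʹSS in its upper and the 3ʹSS in its lower part. Intron 2 of the RS genes, intron 3 of SCL30a and introns 3 and 4 of SCL33 stand out from the rest of their gene, less at the 5ʹSS of RS31 (0.0656) than at its 3ʹSS (0.854), while the longest intron of all, SCL30 intron 3 (1100 bp), does not.

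In the chromatin fractions with elongating transcripts the contrast was smaller, as the other introns also had high ratios there. The long introns had a median 5ʹSS ratio of 0.607 in CB-RNA, 0.641 in RNAe and 0.614 in RNAe + RNAf, and the others had 0.192, 0.221 and 0.250. The median 3ʹSS ratio was 0.769, 0.620 and 0.707 for the long introns and 0.250, 0.320 and 0.273 for the others. The medians of the other introns in RNAf were thus far below those in RNAe, and those of the long introns were nearer to each other. SCL28 entered both RNAe medians of the long introns with a ratio of 0 on 1 exonic read, which lowered them. It also raised the CB-RNA median at the 3ʹSS, with 0.889 on 9 exonic reads. The RNAe + RNAf median at the 5ʹSS was likewise raised, by its 0.75 on 8 exonic reads. Whether the long introns stood higher in RNAe or in RNAf is therefore not read from these medians.

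**Figure D2:**
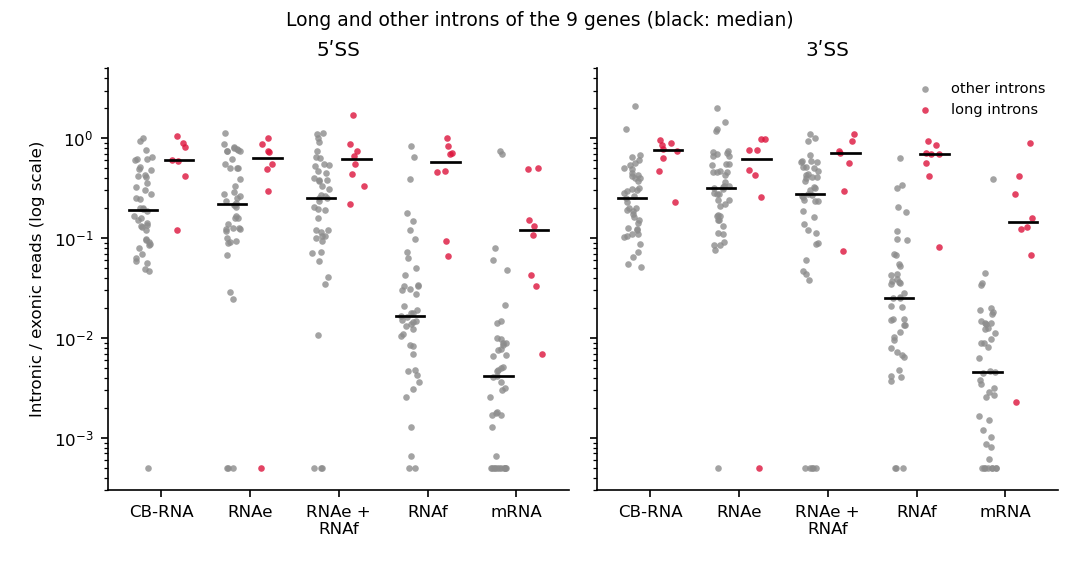
Ratio of intronic to exonic reads (log scale) of every long (red) and other (grey) intron of the 9 genes with at least 1 exonic read, by group and splice site; black lines are medians, and ratios under 0.0005 are drawn there. The medians of the long introns are 0.582 and 0.695 in RNAf, where those of the other introns are 0.0166 and 0.0251.

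RS31 is a regulator of alternative splicing whose own long intron is known to respond to light. This intron (chr3:22901256-22902053, minus strand, 798 bp) had low ratios at its 5ʹ end and high ratios at its 3ʹ end. The 5ʹSS ratio was 0.120 in CB-RNA, against RNAe 0.294, RNAe + RNAf 0.219, RNAf 0.0656 and mRNA 0.0333. The 3ʹSS ratio was 0.788, 0.766, 0.745, 0.854 and 0.275 in the same order. The 3ʹSS ratio was above the 5ʹSS ratio in all 5 groups, by 3.70 on the log2 scale for RNAf (Fisher's exact test, adjusted p = 3.58e-307) and by 3.03 for mRNA (Fisher's exact test, adjusted p = 4.1e-48). RNAf had 2373 intronic and 2779 exonic reads at the 3ʹ splice site (95% Wilson interval of the ratio 0.808 to 0.902). The 5ʹ end was lower in RNAf than in RNAe (log2 difference 2.17 for RNAe over RNAf, adjusted p = 6.44e-16, Fisher's exact test), while the 3ʹ ends differed by -0.16 and did not pass the test (adjusted p = 0.366, Fisher's exact test). The other 4 introns of RS31, all under 100 bp, had RNAf ratios of 0.0031 to 0.0155 over both sites. RefSeq lists 1 transcript of RS31, which lacks the whole long intron.

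RS31a, the closest relative of RS31, was covered thinly, with 11 to 19 exonic reads at the 5ʹ end of its long intron (chr2:19137682-19138386, minus strand, 705 bp) in the 3 fractions with elongating RNA. Its 5ʹSS ratio was 0.895 in CB-RNA, against RNAe 0.727, RNAe + RNAf 1.71, RNAf 1.02 and mRNA 0.503. The 3ʹSS ratio was 0.855, 0.988, 0.707, 0.699 and 0.421. Unlike RS31, this intron was kept at both ends, and its mRNA ratios were among the highest of the 9 genes: 0.503 (95% interval 0.389 to 0.650) and 0.421 (0.326 to 0.544). Of 4 RefSeq transcripts, 1 removes the intron whole, 1 keeps it whole and 2 keep parts of it, namely intronic bases 1 to 556 and 622 to 705. A non-coding RNA gene on the opposite strand (AT2G09740) lies inside the intron. The libraries were strand-specific, but the sources used here do not state whether reads were counted by strand, so the part of that gene in the intronic reads was not tested.

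Intron 5 of RS31a (94 bp) departed from its neighbours as well. Its 5ʹSS ratio was 0.625 in CB-RNA, 0.821 in RNAe and 0.911 in RNAe + RNAf, but 0.0179 in RNAf and 0.0485 in mRNA. The 3 fractions with elongating RNA were thus all far above both polyadenylated fractions. None of the 4 other introns of RS31a passed the test between RNAf and mRNA at either site.

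RS40 and RS41 form a second pair, and both proteins are known to take part in microRNA processing. The long intron of RS40 (chr4:13025274-13026055, plus strand, 782 bp) had a 5ʹSS ratio of 0.820 in CB-RNA, RNAe gave 0.874, RNAe + RNAf 0.670, RNAf 0.688 and mRNA 0.134. Its 3ʹSS ratio was 0.751, 0.764, 0.569, 0.690 and 0.130. Both ends therefore gave the same course, high and level through the 4 chromatin groups and lower in mRNA, with a log2 difference of RNAf over mRNA of 2.36 for the 5ʹSS (Fisher's exact test, adjusted p = 1.7e-63) and 2.4 for the 3ʹSS (Fisher's exact test, adjusted p = 2.21e-71). RNAe and RNAf did not differ at either end by the test (adjusted p = 0.0661 and 0.452, Fisher's exact test). Intron 1 of RS40, in the 5ʹ UTR and 485 bp long, had no intronic read against 468 exonic reads at its 5ʹ splice site in mRNA and 18 against 859 in RNAf.

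The long intron of RS41 (chr5:21131187-21132086, plus strand, 900 bp) had a 5ʹSS ratio of 0.607 in CB-RNA, RNAe gave 0.738, RNAe + RNAf 0.442, RNAf 0.475 and mRNA 0.0432. Its 3ʹSS ratio was 0.466, 0.431, 0.298, 0.710 and 0.0671. The 3ʹ end was higher in RNAf than in any other group, with 95% intervals of 0.652 to 0.774 in RNAf and 0.271 to 0.686 in RNAe, but the difference from RNAe did not pass the test (log2 -0.70, adjusted p = 0.0575, Fisher's exact test). With reads thinned to equal numbers by a random draw it did (log2 -1.37, adjusted p = 0.0106, Fisher's exact test). That draw kept all RNAe reads, so the move came only from which RNAf reads were drawn. It therefore adds nothing to the comparison of all reads. At the 5ʹ end RNAe was the higher of both (log2 0.63, adjusted p = 5.34e-05, Fisher's exact test). In RNAf the 3ʹ end exceeded the 5ʹ end by 0.58 on the log2 scale (adjusted p = 9.02e-07, Fisher's exact test). The drop to mRNA was the steepest of the RS class, by 3.46 and 3.40 on the log2 scale from RNAf (adjusted p = 6.58e-134 and 2.12e-199, Fisher's exact test).

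RefSeq lists 8 transcripts of RS40 and 7 of RS41, of which 2 in each gene remove the long intron whole, 1 keeps it whole and 5 and 4 keep parts. The parts kept in RS40 were intronic bases 1 to 583, 327 to 583, 327 to 782 and 561 to 782. Those in RS41 were bases 1 to 701, 376 to 629, 376 to 701 and 376 to 900. Both genes thus have parts that reach the start and parts that reach the end of the intron. Over the start of the RS41 long intron lies a protein-coding gene on the opposite strand (AT5G52045), whose part in the 5ʹSS reads was not tested. Intron 1 of RS41 (642 bp, 5ʹ UTR) had 7 intronic and 670 exonic reads at its 5ʹ splice site in RNAf and none against 1629 in mRNA.

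**Figure D3:**
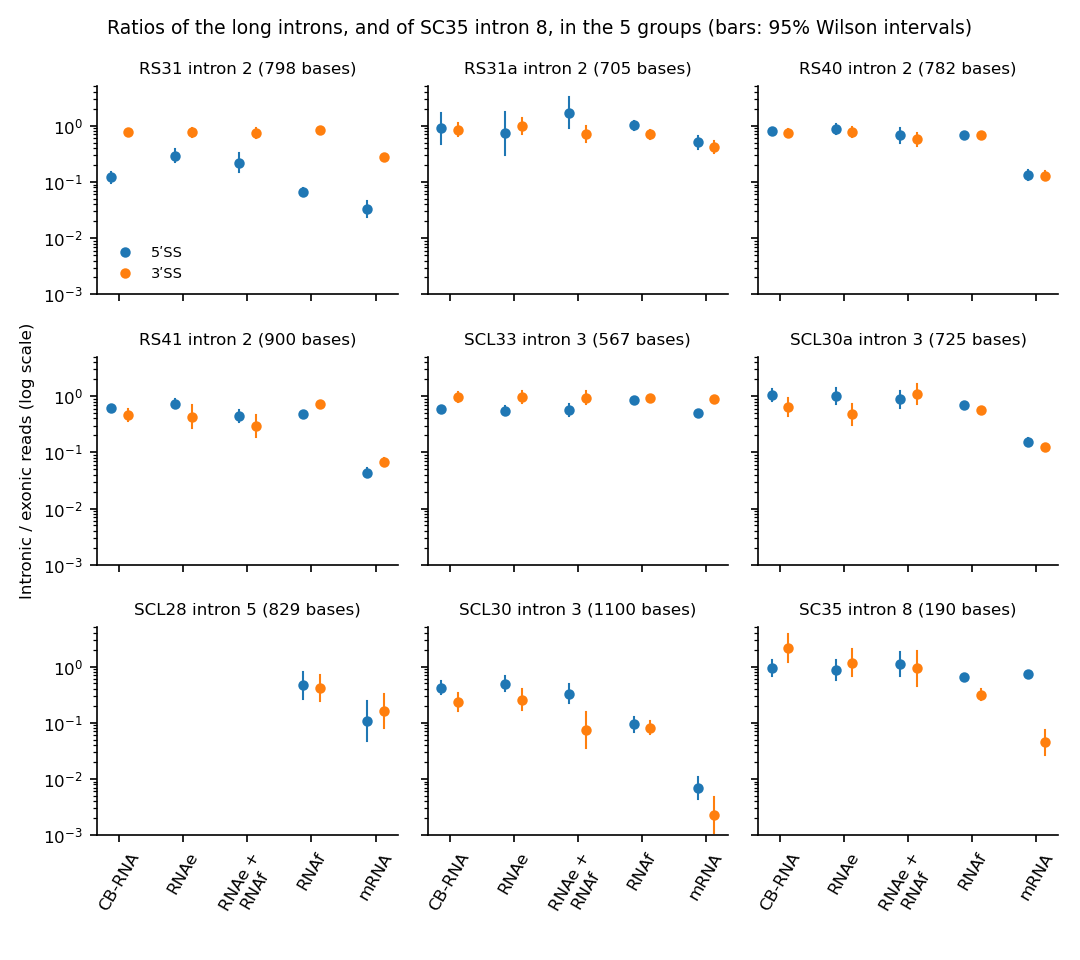
Ratio of intronic to exonic reads (log scale) at the 5ʹSS (blue) and 3ʹSS (orange) of the 8 long introns and of SC35 intron 8 in the 5 groups, with 95% Wilson intervals, for sites with at least 10 exonic reads. RS31 parts at its ends, SCL33 is high in all 5 groups, and SCL30 is at 0.0068 and 0.0023 in mRNA.

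SCL33, also known as SR33, binds the U1 snRNP protein U1-70K. Its long intron (intron 3, chr1:20631120-20631686, plus strand, 567 bp) had the highest 3ʹSS ratio of the 52 introns in mRNA. The 3ʹSS ratio was 0.956 in CB-RNA, against RNAe 0.977, RNAe + RNAf 0.941, RNAf 0.936 and mRNA 0.897. None of the 5 comparisons between groups passed the test there, and the RNAf to mRNA difference was 0.06 on the log2 scale (adjusted p = 0.593, Fisher's exact test). The 5ʹSS ratio was 0.585, 0.554, 0.558, 0.838 and 0.492. It was higher in RNAf than in RNAe (log2 of RNAe over RNAf -0.60, adjusted p = 8.08e-05, Fisher's exact test), the only long intron with that direction past the test, and higher in RNAf than in mRNA (log2 0.77, adjusted p = 3.29e-14, Fisher's exact test). The call against RNAe was lost when reads were thinned to equal numbers (log2 -0.41, adjusted p = 0.0562, Fisher's exact test).

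The transcript listed for SCL33 splits this region into intron 3, an exon of 36 bases and intron 4 (chr1:20631723-20631884, 162 bp, which does not run from GT to AG). Intron 4 behaved like the long intron, with a 5ʹSS ratio of 0.770 in CB-RNA, against RNAe 0.803, RNAe + RNAf 0.646, RNAf 0.834 and mRNA 0.695, and a 3ʹSS ratio of 0.571, 0.551, 0.436, 0.635 and 0.389. Of 7 RefSeq transcripts, 1 uses intron 3 as listed, 1 keeps it whole and 1 keeps its last 334 bases. The remaining transcripts neither use it as listed nor hold any of it in an exon. The inner splice sites, at the 3ʹ end of intron 3 and the 5ʹ end of intron 4, share the short exon. They had 698 and 681 exonic reads in mRNA, beside 980 and 1423 at the outer sites. RNA without the short exon adds no exonic reads from it, and how far this raises the inner ratios was not tested. The outer sites, at the 5ʹ end of intron 3 and the 3ʹ end of intron 4, gave 0.838 and 0.635 in RNAf and 0.492 and 0.389 in mRNA. Introns 1, 2, 5 and 6 of SCL33, in contrast, had RNAf ratios of 0.00066 to 0.0164.

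SCL30a is the closest relative of SCL33 and is known for its role in abscisic acid responses and seed germination. Its long intron (intron 3, chr3:4430320-4431044, minus strand, 725 bp) had a 5ʹSS ratio of 1.04 in CB-RNA, RNAe gave 1, RNAe + RNAf 0.871, RNAf 0.705 and mRNA 0.153. Its 3ʹSS ratio was 0.636, 0.475, 1.09, 0.562 and 0.122. RNAe and RNAf did not differ past the test (adjusted p = 0.0704 and 0.567, Fisher's exact test), and mRNA was below RNAf by 2.2 and 2.19 on the log2 scale (adjusted p = 3.21e-58 and 1.69e-80, Fisher's exact test). In mRNA, SCL33 and SCL30a parted, with 95% intervals at the 5ʹ splice site of 0.441 to 0.548 and 0.132 to 0.178. RefSeq lists 1 transcript of SCL30a, which removes the intron whole. Introns 1 and 2 of the gene, 377 and 334 bp long, had no intronic read at the 3ʹ splice site in mRNA against 1625 and 1475 exonic reads.

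SCL33 protein has been described to bind repeats of GAAG in its own long intron, and this motif was therefore counted on the transcribed strand of every intron. It occurred 8 times in SCL33 intron 3 and 8 times in SCL30a intron 3, or 1.41 and 1.10 times per 100 bases, densities above those of 99.4% and 98.2% of introns of at least 300 bp. Of those introns, 70.4% hold the motif at least once. Most of the copies lay close together, in the later part of the intron. The 120 bases with the most copies are shown for both genes, with GAAG in capitals.
SCL33 intron 3, bases 407 to 526, chr1:20631526-20631645, plus strand: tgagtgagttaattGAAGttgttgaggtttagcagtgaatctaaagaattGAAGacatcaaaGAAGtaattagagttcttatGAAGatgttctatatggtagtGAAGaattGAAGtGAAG
SCL30a intron 3, bases 410 to 529, chr3:4430516-4430635, minus strand: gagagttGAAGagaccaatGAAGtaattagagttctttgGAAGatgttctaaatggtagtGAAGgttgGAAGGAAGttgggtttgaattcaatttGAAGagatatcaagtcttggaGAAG

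The windows hold 7 copies in SCL33 and 8 in SCL30a, and 18 and 8 of the 14167 introns have a window with as many. The long intron of SCL30 held 21 copies, with 9 in its densest window, which only 4 introns reach.
SCL30 intron 3, bases 592 to 711, chr3:20561969-20562088, plus strand: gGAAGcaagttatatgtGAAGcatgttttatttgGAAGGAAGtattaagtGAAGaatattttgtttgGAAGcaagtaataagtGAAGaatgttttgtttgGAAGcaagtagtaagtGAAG

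SCL30, which had the most copies, had the lowest ratios of the long introns in mRNA, while SCL33 had the highest 3ʹSS ratio. SCL28 held 5 copies, with 4 in its densest window. The RS long introns had 2 to 5 copies each and no more than 3 in a window. Whether the motif goes with the ratios was not tested.

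SCL30 was the exception among the long introns. Its intron 3 (chr3:20561378-20562477, plus strand, 1100 bp) had a 5ʹSS ratio of 0.419 in CB-RNA, RNAe gave 0.496, RNAe + RNAf 0.330, RNAf 0.0931 and mRNA 0.0068. Its 3ʹSS ratio was 0.232, 0.258, 0.0745, 0.0818 and 0.0023. RNAf was below RNAe at both ends (log2 of RNAe over RNAf 2.41 and 1.67, adjusted p = 5.65e-14 and 0.000102, Fisher's exact test), and at the 3ʹ end none of the other 6 long introns tested passed the test in that direction. In RNAf, intron 6 of SCL30 (82 bp) had the highest ratios of the gene, 0.179 and 0.183, above those of the long intron. At the 5ʹSS in mRNA it was also the highest, at 0.0099.

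SCL28, known for a role in the cell cycle, was near the lower limit of detection. Its long intron (intron 5, chr5:6269271-6270099, minus strand, 829 bp) had at most 9 exonic reads at either end in CB-RNA, RNAe and RNAe + RNAf, which gave no usable ratio. In RNAf the ratios were 0.462 (95% interval 0.266 to 0.801) and 0.422 (0.249 to 0.717). In mRNA they were 0.107 (0.0472 to 0.243) and 0.161 (0.0806 to 0.320), lower than in RNAf at the 5ʹ splice site (log2 2.03, adjusted p = 0.0105, Fisher's exact test) but not past the test at the 3ʹ splice site (adjusted p = 0.0528, Fisher's exact test).

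SC35, an SR protein that is conserved from plants to animals, had 8 introns of 78 to 190 bp. Its last intron (intron 8, chr5:25681543-25681732, minus strand, 190 bp) lies in the 3ʹ UTR and had high 5ʹSS ratios also in polyadenylated RNA. It is shown because it was the only intron without a length of 300 bp, beside SCL33 intron 4, with an mRNA ratio above 0.1.
SC35 intron 8, 5ʹ splice site: cttgctttccGTAGGTGCCCTCAAA
SC35 intron 8, 3ʹ splice site: CTTGTCTTGGATTTTTCTAGtctggttcga

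The 5ʹSS ratio of SC35 intron 8 was 0.949 in CB-RNA, against RNAe 0.870, RNAe + RNAf 1.10, RNAf 0.652 and mRNA 0.743. The 3ʹSS ratio was 2.12, 1.17, 0.933, 0.318 and 0.0450. Its values in CB-RNA, RNAe and RNAe + RNAf rest on only 16, 23 and 15 exonic reads (95% interval in CB-RNA 1.18 to 3.82). In mRNA the 5ʹ end exceeded the 3ʹ end (log2 of 3ʹSS over 5ʹSS -4.0, adjusted p = 3.71e-51, Fisher's exact test), the reverse of RS31. Exonic reads fell from 1154 beside the 5ʹ to 333 beside the 3ʹ splice site in mRNA. Of 2 RefSeq transcripts, 1 removes the intron and 1 holds it inside an exon. The other 7 introns of SC35 had RNAf ratios of 0.0026 to 0.207, and intron 6 (82 bp) moved from 0.507 in RNAe to 0.0131 in RNAf and 0.0018 in mRNA at the 5ʹ splice site.

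The long intron was then set against the other introns of its own gene, summed, with the same test run on every gene that has a longest intron of at least 300 bp. In RNAf the long intron was higher in 7 of 8 members at both splice sites and lower in none, where 26.5% and 33.3% of all genes tested were called higher and 34.3% and 31.1% lower. In mRNA it was again higher in 7 of 8 members at both sites, beside 24.7% and 25% of all genes called higher, and 24.4% and 27.5% lower. The exception was SCL30 each time, with log2 values of 0.35 and -0.07 in RNAf. In mRNA the long intron of SCL30 was lower than its other introns at the 3ʹ splice site (log2 -1.31, adjusted p = 0.0217, Fisher's exact test), a call that was lost and turned in sign (log2 0.17) against the adjacent introns only. In that setting SCL28 also lost its call in mRNA at the 5ʹSS (Fisher's exact test, adjusted p = 0.127).

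The size of the excess differed between the fractions. Its median over the members was 3.98 and 4.64 on the log2 scale in RNAf, where all genes had -0.40 and -0.06, and 3.43 and 4.14 in mRNA, where all genes had -0.23 and -0.37. In RNAe it was 1.58 and 1.48 over 7 members, with 5 and 4 called higher and none lower, against 19.9% and 16.4% of all genes higher and 19.7% and 11.5% lower. In CB-RNA, 5 and 6 of 7 members were called higher and none lower (25.9% and 21.8% of all genes higher, 25% and 18.7% lower), with medians of 1.48 and 1.55. RNAe + RNAf gave 6 and 4 of 7 higher (19.1% and 16.5% of all genes), medians of 1.4 and 1.47, and 1 member lower, SCL30 at the 3ʹSS (15.8% and 9.99% of all genes).

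**Figure D4:**
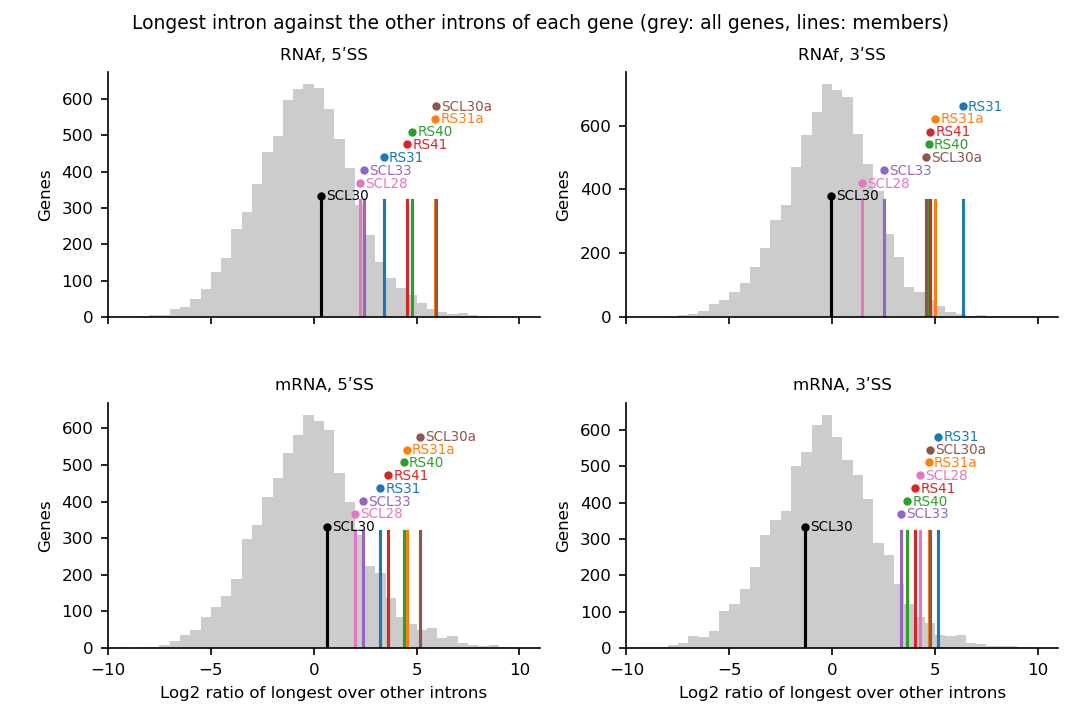
Distribution over all genes (grey bars, number of genes per bin of 0.5) of the log2 ratio of the longest intron over the other introns of the gene, in RNAf and mRNA at both splice sites, with the 8 members as coloured lines. All but SCL30 lie to the right of the centre, from 1.47 (SCL28, 3ʹSS) to 6.36 (RS31, 3ʹSS) in RNAf.

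RS31 had the largest excess at the 3ʹ splice site in RNAf (log2 6.36, above 99.7% of 7362 genes), and SCL30a the largest at the 5ʹ splice site (log2 5.93, above 99.4% of 7335 genes). RS31a followed at 5.91 and 5.01, RS40 at 4.79 and 4.70, and RS41 at 4.54 and 4.77. The remaining values were 3.42 for RS31 at the 5ʹSS and 4.58 for SCL30a at the 3ʹSS. SCL33 was lower in this order, at 2.43 and 2.54, because intron 4 counts among its other introns. With intron 4 left out, an alternative added after the values were seen, SCL33 stood at 6.25 and 6.36 in RNAf and at 6.65 and 7.27 in mRNA. Those are the highest values of the members in mRNA, though the 3ʹSS of this intron lies beside the short exon.

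Other introns were then placed by their position. In the 8 genes with a long intron, the 14 introns before it had a median 5ʹSS ratio of 0.121 in RNAe, 0.0114 in RNAf and 0 in mRNA. The 22 introns after it had 0.221, 0.0166 and 0.0059. The medians on both sides of the long intron were therefore low in RNAf, with single higher introns, SCL28 intron 1 at 0.389 before and SCL33 intron 4 at 0.834 after it.

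RNAe and RNAf were compared intron by intron to ask which introns differ once a transcript is polyadenylated. Of the other introns of the 9 genes, 29 of 37 tested had a higher 5ʹSS ratio in RNAe and 34 of 37 a higher 3ʹSS ratio, beside 68.1% and 69.5% of all introns tested. Of the long introns, 3 of 7 were higher in RNAe at the 5ʹ splice site (RS31, RS41 and SCL30) and 1 of 7 at the 3ʹ splice site (SCL30). Lower values in RNAe passed the test in 1 long intron (SCL33, 5ʹSS) and in no other intron, beside 0.848% of all introns for the 5ʹSS and 0.427% for the 3ʹSS. The median log2 difference was 0.50 and 0.06 for the long introns, 3.64 and 3.6 for the others, and 2.48 and 2.32 over all introns. RNAf was at or above RNAe, without regard to a test, in 2 of 7 long introns at the 5ʹ and 3 of 7 at the 3ʹ splice site, which was the case for 10.3% and 8.24% of all introns.

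**Figure D5:**
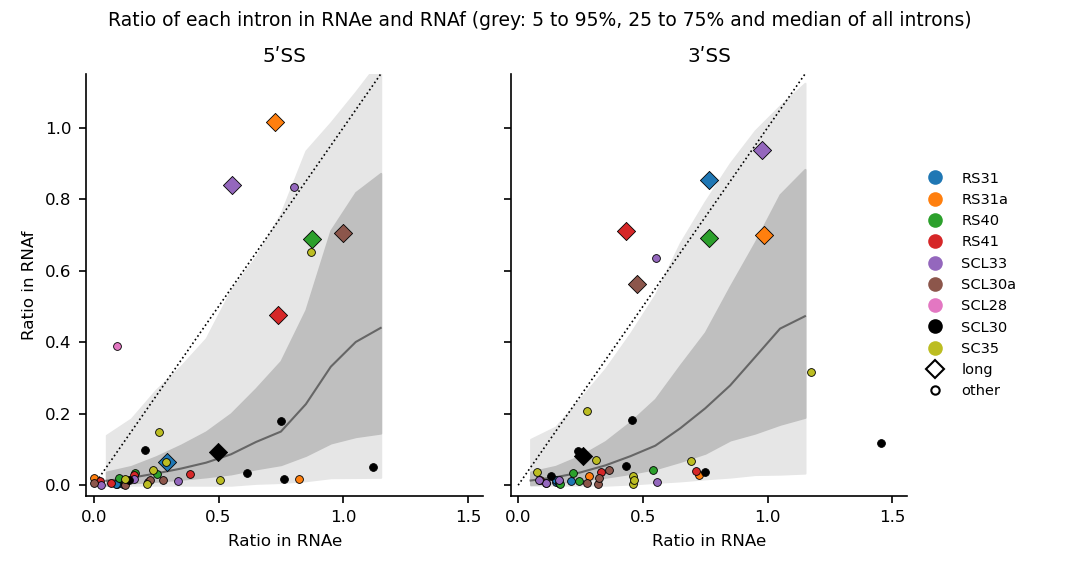
Ratio of intronic to exonic reads in RNAe (x axis) and RNAf (y axis) for introns of the 9 genes with at least 10 exonic reads in both, at the 5ʹSS and 3ʹSS; diamonds are long and circles other introns, grey bands and line give all introns of the tables, and the dotted line marks equal ratios. Long introns lie on both sides of the dotted line, with SCL30 and the RS31 5ʹSS low in RNAf, and most other introns lie near 0 in RNAf, apart from SCL33 intron 4, SC35 intron 8 and, at the 5ʹSS, SCL28 intron 1.

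Between RNAf and mRNA nearly all long introns differed. All 8 were higher in RNAf at the 5ʹSS and 6 of 8 at the 3ʹSS (not SCL33 and SCL28), beside 58% and 63.7% of all introns called higher and 0.47% and 0.409% called lower. A 2-fold limit left 6 and 5 of the 8, without SCL33 (log2 0.77) and RS31 (0.96) at the 5ʹSS and RS31a (0.73) at the 3ʹSS. Of the other introns, 24 of 43 and 28 of 42 were higher in RNAf, and none was lower. The median log2 difference was 2.11 and 1.91 for the long introns, 2.12 and 2.44 for the others, and 2.40 and 2.53 over all introns. The median differences of both classes were thus close, while the levels differed.

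Among the other introns past that test, those with the largest RNAf ratios were SCL33 intron 4, SC35 intron 8, SCL28 introns 1 and 3, SCL30 intron 6 and SC35 intron 2. SCL28 intron 1 had 7 intronic and 18 exonic reads for the 5ʹSS of RNAf (ratio 0.389), and mRNA had 0.0794 (adjusted p = 0.0262, Fisher's exact test). SCL30 intron 6 had 0.179 and 0.0099 (adjusted p = 7.68e-56, Fisher's exact test). SC35 intron 2 had 0.149 and 0.0147 (adjusted p = 1.54e-23, Fisher's exact test). In the RS class the largest were 0.0330 in RS40 (intron 4, 5ʹSS), 0.0426 in RS40 (intron 5, 3ʹSS), 0.0305 in RS41 (intron 3, 5ʹSS) and 0.0390 in RS41 (intron 5, 3ʹSS). In RS31 only intron 4 passed, at the 3ʹ splice site, with RNAf at 0.0048 and mRNA at 0.00062 (Fisher's exact test, adjusted p = 0.0360). The smallest, in SCL30a intron 1 at the 3ʹ splice site, was 0.0042 in RNAf, with no intronic read in mRNA.

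The 2 preparations made alike, CB-RNA and RNAe + RNAf, were also compared. RNAe + RNAf was shallow, with a median of 30 exonic reads at the 5ʹSS over all introns, so a lack of calls does not show equal ratios. None of the 7 long introns passed the test between them at either site, where 1.19% and 0.925% of all introns were higher in CB-RNA and 1.38% and 1.08% lower. The log2 differences of these long introns ran from -0.91 to 0.46 at the 5ʹSS and from -0.77 to 1.57 at the 3ʹSS. Of the others, SCL33 intron 2 was higher in CB-RNA at the 5ʹ splice site, and SCL33 intron 5 and SCL30a intron 5 were lower at both sites. RNAe and RNAe + RNAf differed in 1 intron, the long intron of RS41 at the 5ʹ splice site (log2 0.74, adjusted p = 0.0441, Fisher's exact test; 0.0532 with an exonic minimum of 1), where 0.853% and 0.711% of all introns were higher in RNAe and 0.337% and 0.275% lower. CB-RNA exceeded mRNA in 5 and 6 of 7 long introns and in 37 of 40 and 40 of 41 others, beside 91.2% and 92.9% of all introns, and was below it in none, beside 0.185% and 0.127%. The long introns not past that test were SCL33 at both sites and RS31a at the 5ʹ splice site.

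Both ends of an intron were compared within each group. In mRNA the 3ʹSS ratio was higher in 3 of 8 long introns (RS31, RS41 and SCL33), beside 3.49% of all introns, and the 5ʹSS ratio in none (2.2%). In RNAf it was higher at the 3ʹ splice site in 2 (RS31 and RS41; 5.35% of all introns) and at the 5ʹ splice site in 2 (RS31a and SCL30a; 1.89%), the last pair with log2 values of 3ʹSS over 5ʹSS of -0.54 and -0.33 (adjusted p = 0.042 and 0.0362, Fisher's exact test). Of the 44 other introns in mRNA, SC35 intron 8 and SCL33 intron 4 were higher at the 5ʹ splice site and none at the 3ʹ splice site. Among the long introns in the fractions with elongating RNA, RS31 and SCL33 were higher at the 3ʹSS in CB-RNA (7.24% of all introns higher, 4.27% lower) and in RNAe (3.68% and 1.83%). RNAe + RNAf had RS31 higher and SCL30 lower at the 3ʹSS (2.67% and 1.42%).

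The exonic reads beside splice sites, added per gene and given per 1000000 of all such reads, were used to see how much of each transcript the fractions held. They were compared only within a gene, since they are not per length. RS31 had 325 such units in RNAf and 54.6 in mRNA, RS31a 32.5 and 8.08, RS40 249 and 38.1, and SCL33 354 and 57.5. These 4 genes were 2.01 to 2.71 on the log2 scale higher in RNAf, above 93.4% to 97.6% of the 15508 genes. They were also higher in RNAe than in mRNA, by 1.05 for RS31, 1.37 for RS31a, 1.77 for RS40 and 1.34 for SCL33 on the log2 scale. In that comparison the median gene lay at 0.29 and SCL28 at 0.96. RS41, SC35, SCL30a and SCL30 lay at -0.28, -0.15, -0.74 and -1.12. For RNAf over mRNA, RS41, SCL30a, SCL28, SC35 and SCL30 lay at 0.66, 0.85, 0.32, 0.18 and -0.10, where the median gene lay at 0.10. The values are pooled and have no test. Among RS31, RS31a, RS40 and SCL33, 3 (RS31, RS31a and SCL33) had the highest mRNA 3ʹSS ratios at their long intron. At the 5ʹSS, RS31a and SCL33 were again the highest, but SCL30a (0.153) stood above RS40 (0.134). RS31 (0.0333) was there above SCL30 (0.0068) only. A link between these levels and the ratios was not tested.

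Depth set the limits for single genes. The tables hold 5460195 exonic reads beside 5ʹ splice sites in RNAe + RNAf, the shallowest group, and 116244073 in mRNA, the deepest. The median intron of the 9 genes had 44.5 and 1357 of them. The 10-read minimum left out 5 to 7 of the 52 introns per site in RNAe and RNAe + RNAf, mostly of SCL28 and RS31a, and none in mRNA. As a check of the tissue, the leaf genes RBCS1A, RCA and GAPB were counted in all 5 tables, and of the seed storage genes CRA1, CRC and CRB only CRA1 and CRC were counted, in mRNA, at 16.3 and 5.88 per 1000000 reads.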

How the data were processed

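Per the submitters' processing notes and the methods, the authors trimmed reads (Trimmomatic 0.39), mapped them to TAIR10 (HISAT2 2.2.0), kept uniquely mapped reads (SAMtools 1.3.1), computed FPKM with StringTie to select expressed genes, and deposited, for introns of the longest transcript, exonic and intronic read counts and their ratio at both splice sites. The deposited tables give 1 set of values per group. Window width is not given in the sources used here.

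The members and gene lists were chosen with earlier results of these data known. Intronic and exonic counts were compared by two-sided Fisher's exact test with Benjamini-Hochberg adjustment at 0.05 over all introns (or genes) with at least 10 exonic reads on both sides of the comparison. Log2 values used a pseudocount of 0.5 reads. Medians are over introns with at least 1 exonic read. Wilson 95% intervals of the intronic share were converted to ratios. Named introns were all long introns, and the other introns past the test between RNAf and mRNA with the largest and smallest ratio of each gene. The 5 genes with the nearest profile were taken by Euclidean distance. On simulated data (RNAf against mRNA, 5ʹSS, 95204 introns, 200 changed 3-fold) the test called 64.5% of the changed introns and 0.0042% of the others. The simulated counts held counting error only, so neither share covers spread between libraries. The changed introns were drawn from well-covered introns with an intermediate intronic share, so the first share does not cover ratios near 0. Alternatives were exonic minimums of 1 and 30, a 2-fold limit, thinning to equal reads, a 400 bp limit, adjacent introns only, the median of the other ratios, and summed reads. Scripts ran in Python 3.11.15 with scipy 1.17.1 for the tests, numba 0.67.0, pandas 2.3.3 and numpy 2.4.6 for the tables, and matplotlib 3.10.9 for the plots. All intron positions are those of the deposited tables.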

Additional observations from a re-analysis of the deposited data

How the results depend on the processing

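No paired analysis was possible because the tables hold pooled values without a column per replicate, and for the same reason leaving out a replicate was not run. Of 805 alternative values, 764 kept their direction and their side of the threshold or stayed within the counting interval. The 1 member intron lower in RNAe than RNAf at the 5ʹSS became 0 with a 2-fold limit and 0 with thinned reads, and at the 3ʹSS 0 became 1 with thinned reads (RS41 long intron). The 1 intron higher in RNAe than RNAe + RNAf at the 5ʹSS became 0 with an exonic minimum of 1, 0 with the 2-fold limit and 0 with thinned reads. Between CB-RNA and RNAe + RNAf, 1 higher intron at the 5ʹSS became 2 with a minimum of 30, 2 lower became 1 with a minimum of 1 and 0 with thinned reads, and 2 lower at the 3ʹSS became 0 with thinned reads. Summed reads in place of the median gave the other introns 0.0638 and 0.0649 in RNAf and 0.0298 and 0.0164 in mRNA. Against adjacent introns only, the SCL30 long intron turned at the 3ʹSS from -1.31 to 0.17 in mRNA and from -0.07 to 1.33 in RNAf, and SCL28 lost its call in mRNA at the 5ʹSS (Fisher's exact test, adjusted p = 0.127). With the median of the other ratios SCL30 turned to 0.14 at the 3ʹSS in RNAf and to -0.46 at the 5ʹSS in RNAe. The other changes of sign came with thinned reads in differences that were not called before or after: SCL33 at the 3ʹSS in CB-RNA over mRNA (log2 -0.057) and in RNAe over RNAe + RNAf (-0.059), RS31 there (-0.065), SCL30a at the 3ʹSS in RNAe over RNAf (0), and SCL30 at the 5ʹSS in CB-RNA over RNAe + RNAf (-0.12). The cause of these changes was not tested. Depth limits SCL28 in all groups and RS31a in the fractions with elongating RNA.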

Other observations

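The other SR protein genes of Arabidopsis (SR30, SR34, SR34a, SR34b, RSZ21, RSZ22, RSZ22a, RS2Z32, RS2Z33, SR45 and SR45a, a list of 11 genes with 91 introns) gave the same kind of measurement. Their median ratios were 0.0108 and 0.0140 in RNAf and 0.0027 and 0.0043 in mRNA. Of the 7 genes of the list tested for a longest intron of at least 300 bp, 5 and 6 were higher than their other introns in RNAf and 1 was lower at each site, beside 26.5% and 33.3% of all genes called higher and 34.3% and 31.1% lower. Their median log2 values were 1.10 and 2.84 in RNAf and 1.74 and 2.75 in mRNA. Between RNAe and RNAf, 78 of 88 introns were higher in RNAe at the 5ʹ and 75 of 91 at the 3ʹ splice site, beside 68.1% and 69.5% of all introns. In exonic reads per 1000000, SR30 had 1885 in RNAf and 254 in mRNA, and SR34b 517 and 41.4, while RSZ22 had 69.5 and 96.6.

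The genes whose long intron had the profile nearest to the members' median were found among 5125 genes, over 10 log2 values of long over other introns (5 groups and both splice sites) and with the 7 members that had a full profile. The nearest outside the list were ARP4 (an actin-related protein, intron 13, 348 bp, distance 1.27), SEC (intron 6, 405 bp, distance 1.39), BRXL4 (intron 2, 2398 bp, distance 1.46), AT5G02710 (intron 4, 583 bp, distance 1.47) and AT2G17340 (intron 1, 353 bp, distance 1.47). The ratio of the ARP4 intron at the 5ʹ splice site was 0.692 in CB-RNA, against RNAe 0.649, RNAf 0.447 and mRNA 0.0832. RS41 was the nearest member, at a distance of 1.27 and rank 2 of all, and SCL30 the farthest, at 10.3 and rank 2259. The values are descriptive, and all genes share the same libraries.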
